A study of Zea mays with 6 samples.

Results

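In anthers of maize (Zea mays) carrying a knockout of ZmRPN1, 226 nuclear genes had a mean level at least 2 times that of wild-type (WT) anthers under the rule used here, out of 46430 rows in the count table. RNA-seq was made from anthers labelled as stages S3 to S5, with 3 libraries from WT plants (coded AA in the sample titles) and 3 from the mutant (coded aa, with Mutator in the title), called zmrpn1 below. The labels give no inbred line, no age and no second allele, and do not say whether the plants were siblings or whether a library pooled several plants, so spreads are those between these libraries. Library totals ran from 16203290 to 29515176 counts, so a level of 1 CPM (a count scaled to the library total) stood for at least 16.2 counts.

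Mutator is a family of maize transposable elements whose insertion into a gene can disrupt it. The series title ties ZmRPN1 to the number of pollen grains. In Arabidopsis, a gene with a like name, REDUCED POLLEN NUMBER1, encodes a relative of the yeast protein Mrt4, which takes part in building the large ribosomal subunit. Pollen forms inside the anther from a small set of germ cells that are surrounded by wall layers, of which the innermost, the tapetum, feeds the developing pollen. Without a gene identifier for ZmRPN1 in the labels, its own level was not analysed here, which leaves the genotype of each library as labelled.

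The doubled genes were chosen from the measured values themselves. CPM was the count over the library total, and a gene was taken when its mean zmrpn1 CPM was at least 1 and at least 2 times its WT mean and when all 3 zmrpn1 values lay above all 3 WT values. Of 44146 nuclear rows, those with identifiers starting Zm00001d, 21633 reached 1 CPM in zmrpn1, 244 of these had the required ratio, and 239 of these also had groups that did not overlap. Of all genes tested by edgeR, 15.2% had all zmrpn1 values above all WT values. Of the 239 genes, the 12 with identifiers from Zm00001d021621 to Zm00001d021845 and the 1 from Zm00001d035236 to Zm00001d035526 were left out by the rule. Because the rule used the contrast of zmrpn1 with WT, the levels and ratios below describe the genes and test nothing. The reference gene table used here matched 0 of the 226 identifiers, so the genes have no names or roles here, and marker genes of anther tissues were not analysed.

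The doubled genes were mostly weakly expressed and mostly 2-fold to 3-fold higher. Their mean WT level had a median of 1.56 CPM and ran from 0.117 to 131 CPM, and their mean zmrpn1 level had a median of 4.32 CPM and ran from 1.00 to 309 CPM. The ratio of zmrpn1 to WT had a median of 2.58 and quartiles of 2.19 and 3.14. In 163 of the 226 genes it was under 3, in 63 at least 3, in 24 at least 4 and in 16 at least 5. Every one of the 226 genes had counts in all 6 libraries, so none of them started from 0 counts in a WT library.

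**Figure D1:**
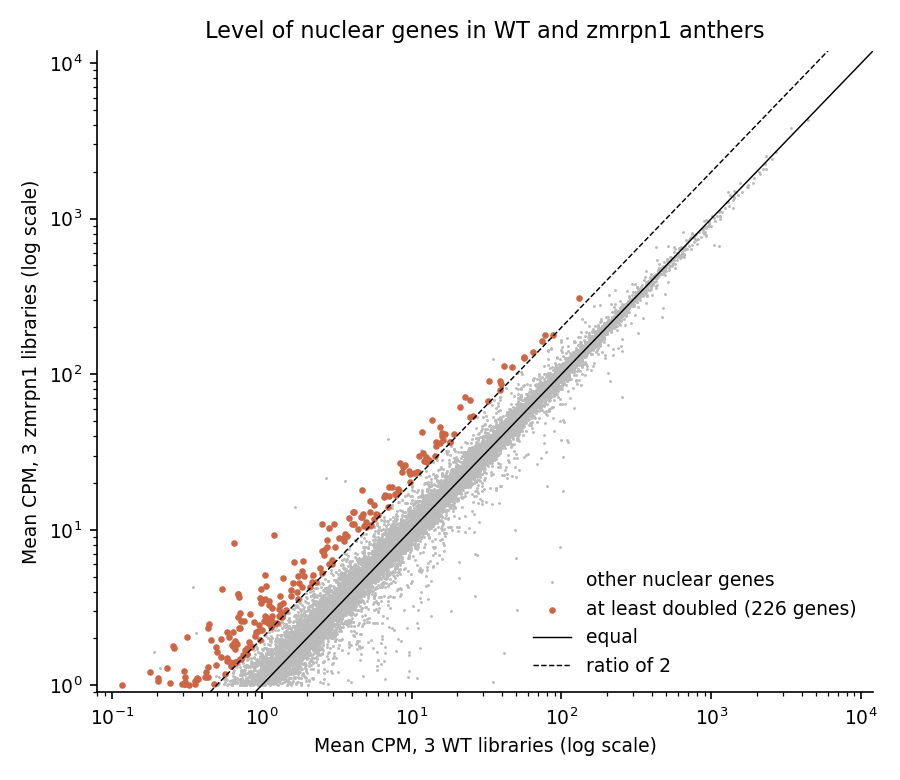
Mean CPM in the 3 WT libraries (horizontal, log scale) against mean CPM in the 3 zmrpn1 libraries (vertical, log scale) for nuclear genes of at least 1 CPM in zmrpn1, with the 226 doubled genes in colour, a solid line at equal levels and a dashed line at a ratio of 2. Most of the doubled genes lie at low levels, most have a ratio of 2 to 3, and they thin out above 50 CPM.

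Summed over the 226 genes, the level was 1694, 1643 and 1664 CPM in WT replicates 1, 2 and 3. In zmrpn1 replicates 1, 2 and 3 the sum was 3936, 3949.6 and 4227 CPM. The summed level was thus 1667 ± 25.3 CPM in WT and 4038 ± 164 CPM in zmrpn1 (mean ± SD, n = 3), a ratio of 2.42, and the groups were apart by the choice of the genes. The 10 doubled genes with the highest zmrpn1 level held 40.5% of this sum in WT and 38.1% in zmrpn1.

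The edgeR quasi-likelihood test across 23477 genes, read here only for effect sizes, called 224 of the 225 doubled genes that passed its filter on low counts higher in zmrpn1, where 6.63% of all tested genes were called in that direction (Benjamini-Hochberg adjusted p under 0.05). DESeq2 called 215 of them higher, where 5.03% of its tested genes were. Since the rule used the same libraries, nothing is read from these counts. The median log2 change of these 225 genes was 1.34, against 0.00122 over all tested genes. A pair of genes was not called and is named for that reason, after the values were seen. Zm00001d006169 did not pass the filter, and its zmrpn1 values of 1.66, 0.912 and 0.462 CPM were more spread than its WT values of 0.342, 0.309 and 0.339 CPM. Zm00001d001104 had a log2 change of 0.95 (standard error 0.35), with 0.489, 0.432 and 0.779 CPM in WT and 1.5, 0.960 and 1.08 CPM in zmrpn1. Both genes average close to the 1 CPM minimum, where a value rests on few counts.

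Doubled genes made up a larger share of weakly expressed than of well-expressed genes. Of genes at 1 to 2 CPM in zmrpn1, outside the left-out stretches, 56 of 1680 were doubled genes (3.33%), with a median ratio of 2.84. At 2 to 5 CPM the share was 63 of 2560 genes (2.46%), at 5 to 20 CPM 58 of 6162 (0.941%), and at 20 to 50 CPM 29 of 5659 (0.512%). Above 50 CPM it was 20 of 5368 genes (0.373%), with a median ratio of 2.30 and a highest ratio of 3.71. Counting error falls with level too, and its part in this trend was not tested. The median coefficient of variation between the zmrpn1 libraries was 18.9% for the doubled genes at 1 to 2 CPM and 4.38% for those above 50 CPM, against 18.9% and 4.28% for all genes at these levels. Between the WT libraries, where the same genes are at a lower level, it was 34.1% and 4.65%.

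The 10 doubled genes with the highest level in zmrpn1 had ratios of 2.05 to 2.73. The highest of all, Zm00001d039524, had 138, 131 and 123 CPM in WT and 309, 314 and 303 CPM in zmrpn1, a log2 change of 1.23 (standard error 0.05.) Its libraries were tightly grouped, with SDs of 7.97 CPM in WT and 5.61 CPM in zmrpn1. Zm00001d018107 had 89.3, 87.0 and 86.9 CPM in WT and 178, 175 and 186 CPM in zmrpn1. Zm00001d028574 had 77.9, 78.9 and 75.1 CPM in WT against 175, 176 and 184 CPM. Both had the zmrpn1 libraries within a narrow band, and zmrpn1 replicate 3 was the highest of the 3.

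Zm00001d044300 had 78.1, 73.6 and 71.3 CPM in WT and 162, 169 and 161 CPM in zmrpn1. For Zm00001d049643 the WT values were 58.8, 57.1 and 54.0 CPM and the zmrpn1 values 128, 128 and 132 CPM. Zm00001d018973 stood at 57.2, 53.4 and 58.3 CPM in WT and at 125, 122 and 133 CPM in zmrpn1. In each of these 3 genes the gap between the groups was many times the spread within them. Zm00001d026271 had the largest ratio of the 10, 2.73, with 42.2, 40.4 and 41.9 CPM in WT against 113, 111 and 116 CPM in zmrpn1, a log2 change of 1.43 (standard error 0.06.) Zm00001d015614, the lowest of the 10, had 38.6, 39.3 and 39.4 CPM in WT and 89.5, 85.5 and 97.0 CPM in zmrpn1.

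A pair of the 10 varied more between the mutant libraries. Zm00001d027929 had 131, 127 and 160 CPM in zmrpn1 replicates 1, 2 and 3, against 66.5, 63.3 and 63.9 CPM in WT. Zm00001d046574 had 106, 97.7 and 127 CPM in zmrpn1, while its WT libraries at 46.9, 46.4 and 47.0 CPM hardly differed. In both it was zmrpn1 replicate 3 that stood above the other mutant libraries.

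**Figure D2:**
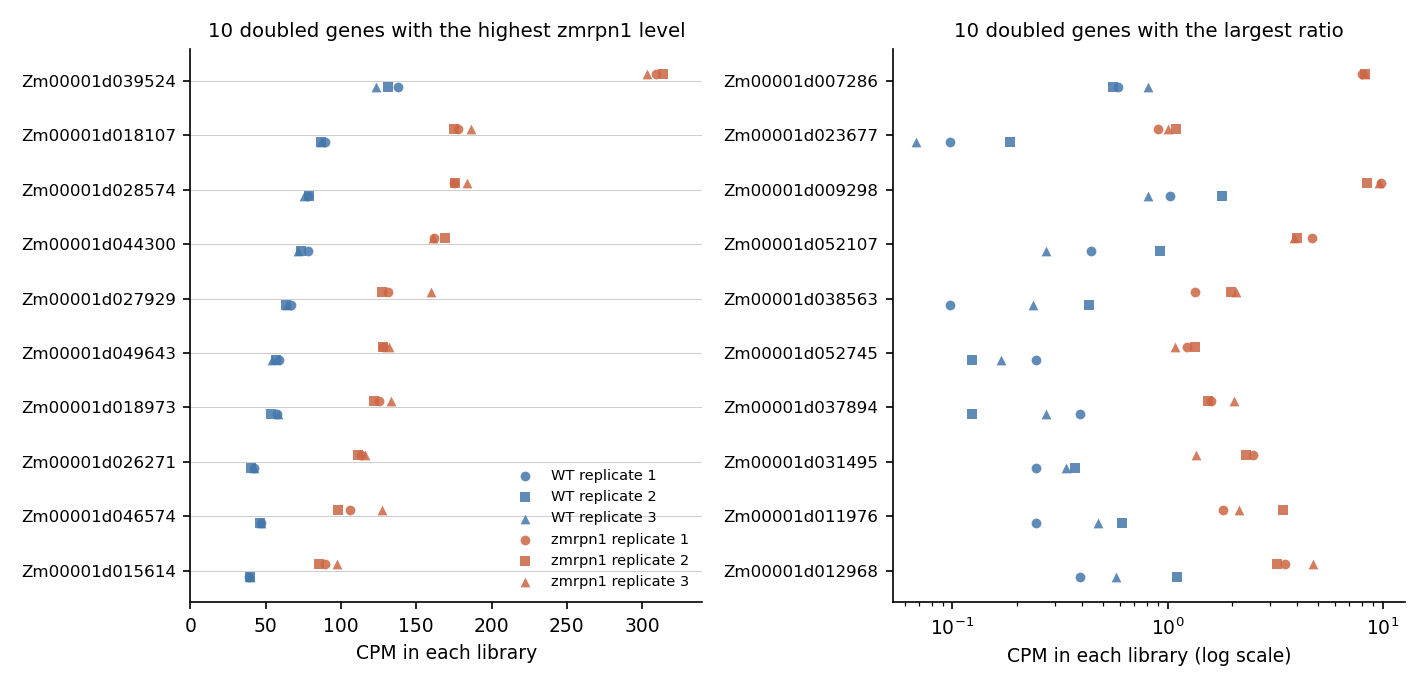
CPM in each of the 6 libraries for the 10 doubled genes with the highest zmrpn1 level (left, linear axis) and the 10 with the largest ratio of zmrpn1 to WT (right, log axis), with WT in blue, zmrpn1 in orange and the replicate number shown by the marker. On the left the values of a group lie close together, and on the right the WT values of under 2 CPM are widely scattered.

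The largest ratios belonged to weakly expressed genes. Zm00001d007286 had the largest, 12.6, with 0.587, 0.555 and 0.813 CPM in WT and 8.06, 8.31 and 8.27 CPM in zmrpn1. WT held 45 counts in all and the mutant 539. Their ratio after scaling to the totals was 12.1, with a 95% exact binomial interval of 8.91 to 16.8 that covers counting error only. Zm00001d009298 had 1.03, 1.79 and 0.813 CPM in WT and 9.88, 8.45 and 9.58 CPM in zmrpn1, a ratio of 7.69 from 74 and 610 counts (95% exact interval of the count ratio 6.53 to 10.7). These 2 genes were the only ones among the 10 largest ratios above 5 CPM in zmrpn1.

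Zm00001d052107 had 0.440, 0.926 and 0.271 CPM in WT and 4.70, 3.99 and 3.88 CPM in zmrpn1. Its log2 change of 3.06 had a standard error of 0.28 and went to 3.58 without WT replicate 2, the largest shift among the named genes when a library was left out. Zm00001d012968 had 0.391, 1.11 and 0.576 CPM in WT and 3.52, 3.22 and 4.77 CPM in zmrpn1. In both genes WT replicate 2 was the highest WT library. Zm00001d023677 rested on the fewest counts in WT, 7 over the 3 libraries against 66 in zmrpn1, and its count ratio of 9.52 had a 95% exact interval of 4.37 to 24.6.

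The remaining 5 of the 10 had 12 to 29 counts over the WT libraries. Zm00001d031495 had zmrpn1 replicate 3 lowest, at 1.35 CPM against 2.51 and 2.31 CPM. Zm00001d011976 had zmrpn1 replicate 2 highest, at 3.46 CPM against 1.82 and 2.15 CPM. Zm00001d038563 had a ratio of 7.02, Zm00001d052745 of 6.79 and Zm00001d037894 of 6.59, with 95% exact intervals of the count ratio of 4.48 to 13.7, 3.60 to 13.4 and 3.90 to 11.3. Over all 226 genes the lower bound of this interval was above 1.5 in 216 genes and above 2 in 129, so in the other 97 counting error alone would allow a ratio under 2.

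Well-expressed genes with larger ratios were few and are named after their values were seen. Of the 49 doubled genes of at least 20 CPM in zmrpn1, Zm00001d024324 had the largest ratio, 3.71, with 13.0, 12.8 and 15 CPM in WT and 47.1, 45.2 and 59.2 CPM in zmrpn1. Zm00001d022451 followed with a ratio of 3.62 and much less spread, at 11.9, 11.5 and 11.7 CPM in WT and 41.3, 40.8 and 44.8 CPM in zmrpn1. Zm00001d003712 had a ratio of 3.20 and mutant values within a narrow band, 27.2, 26.5 and 26.5 CPM against 9.04, 7.90 and 8.17 CPM. Zm00001d049364 had a ratio of 3.14, with 20.4, 20.5 and 27.1 CPM in WT and 68.6, 67.1 and 77.5 CPM in zmrpn1, so that replicate 3 was highest in both groups.

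At the lower edge the ratio of 2 did not part distinct sets of genes. There were 31 doubled genes with a ratio of 2 to 2.1, and 49 genes that met every other condition had a ratio of 1.9 to 2. Just inside were Zm00001d036973 with a ratio of 2.0023, Zm00001d018838 with 2.0041 and Zm00001d039040 with 2.0068. Just outside were Zm00001d017477 with 1.9998, Zm00001d022624 with 1.9965 and Zm00001d050099 with 1.9953. Zm00001d036973, inside, had 1.47, 1.17 and 1.46 CPM in WT and 2.72, 2.79 and 2.69 CPM in zmrpn1. Zm00001d050099, outside, had 4.4, 4.20 and 4.20 CPM in WT and 9.40, 7.64 and 8.5 CPM in zmrpn1. The genes on either side of the threshold thus differed by less than the spread between libraries. A further 5 genes reached the ratio with overlapping groups, all at 1.10 to 1.54 CPM in zmrpn1. One row outside the nuclear identifiers met the other conditions, ENSRNA049477727, with 12.6 CPM in zmrpn1 replicate 1 but 1.15 and 1.12 CPM in replicates 2 and 3 and up to 0.983 CPM in WT.

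To read the ratio in a library that took no part in the choice, the rule was applied to 5 libraries and the values of the sixth were then compared with the opposite group. Without zmrpn1 replicate 1 the rule chose 275 genes with a median ratio of 2.5 in the libraries used. In the library left out their median ratio was 2.26, and 185 of them (67.3%) were at least 2 times the WT mean. Without zmrpn1 replicate 2 it chose 244 genes, whose median ratio was 2.52 in the choice and 2.35 in the library left out, with 188 genes (77.0%) at 2 or more. In both rounds the median ratio was somewhat lower in the library left out than in the choice. Genes chosen for a high ratio tend to read lower in a library not used, so no trait of these libraries is read from it.

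Of the zmrpn1 libraries, replicate 3 went the other way. Without it the rule chose 223 genes, whose median ratio was 2.49 in the choice and 2.59 in that library, with 191 genes (85.7%) at 2 or more. With WT replicates 1, 2 and 3 left out, the mean zmrpn1 level over the left-out value had medians of 2.36, 2.50 and 2.32. In the choice the medians were 2.48, 2.49 and 2.52, so WT replicate 2 did not read lower either. In the left-out WT libraries, in the same order, 71.5%, 75% and 70.7% of the chosen genes reached 2. In each of the 6 rounds the left-out library lay on the chosen side for all but 1 to 6 genes, and beyond every library of the opposite group in 94.2% to 97.5%. The opposite group was used in both the choice and the reading, so the reading is not wholly independent of the choice. These shares were high in part by the choice. No value for genes without a difference was computed beside them, so nothing is read from them.

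**Figure D3:**
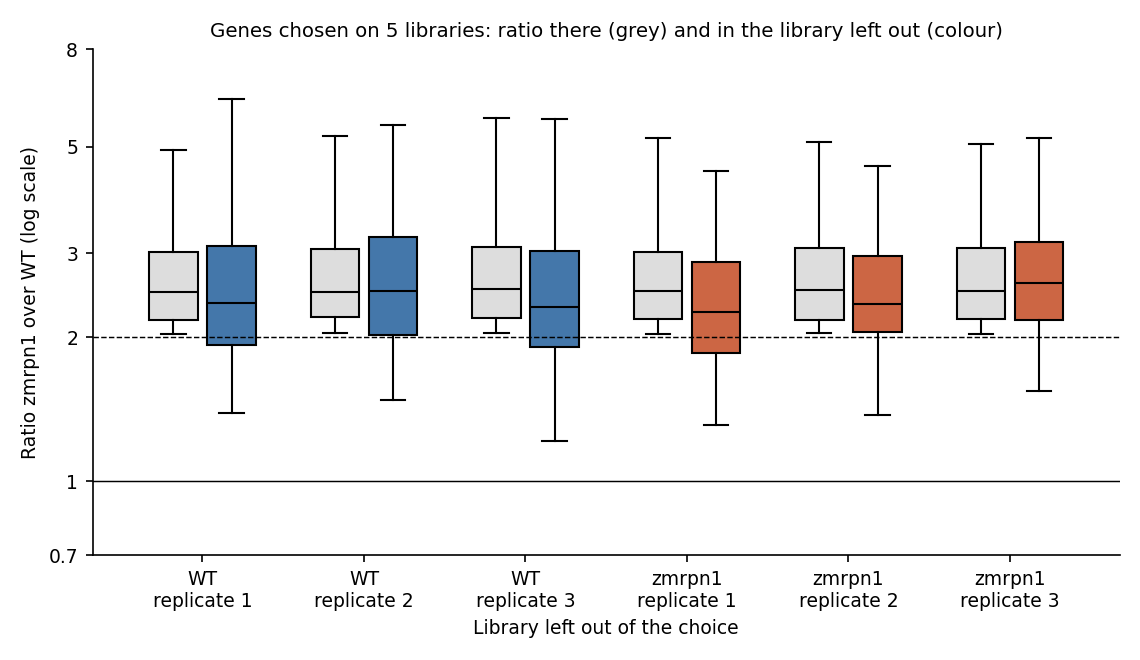
Ratio of zmrpn1 to WT (log scale) of the genes chosen on 5 libraries, in the libraries of the choice (grey) and in the library left out (blue for WT, orange for zmrpn1), with boxes at the quartiles, a line at the median and whiskers from the 5th to the 95th percentile. Medians in the left-out library run from 2.26 to 2.59, and the lower whiskers stay above a ratio of 1.

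The 3 mutant libraries did not contribute evenly. For 106 of the 226 genes (46.9%) zmrpn1 replicate 3 held the highest mutant value, against 74 genes for replicate 2 and 46 for replicate 1. Over the 21724 tested genes that averaged at least 1 CPM the corresponding share of replicate 3 was 35.0%, and over the 1310 other genes at this level that edgeR called higher in zmrpn1 it was 54.7%. Scaling by trimmed mean of M values (TMM), a scaling that allows for differences in library composition, gave 111 genes highest in replicate 3. In WT the highest value fell to replicates 1, 2 and 3 in 80, 67 and 79 genes. The part of this library in the results was not tested beyond leaving it out. Without it the rule gave 223 genes, of which 201 were among the 226.

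**Figure D4:**
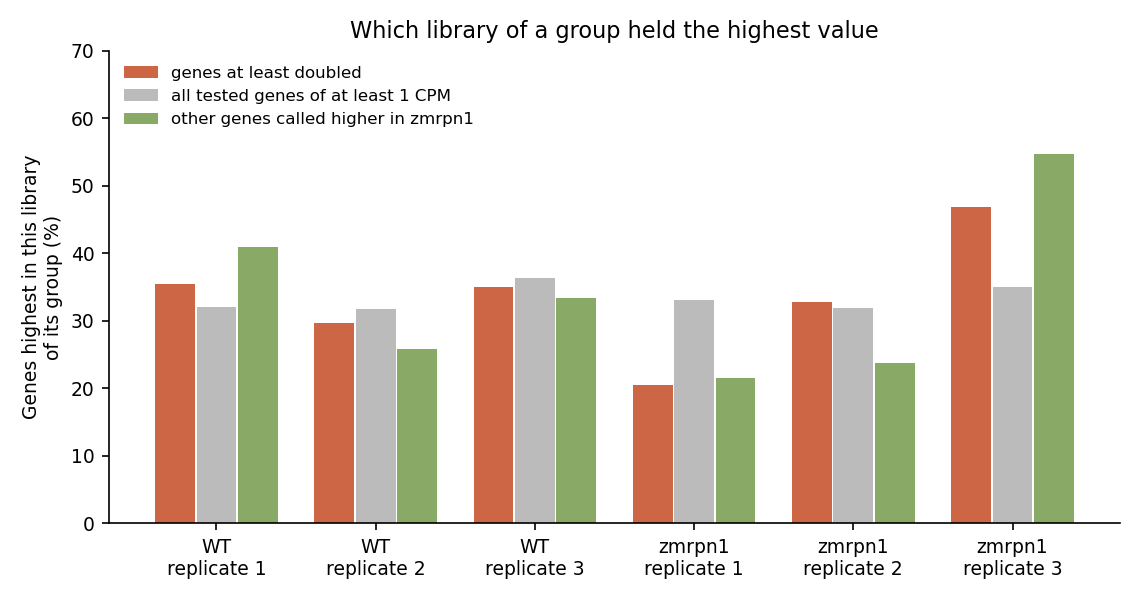
Percentage of genes whose highest value within a group fell in each library, for the 226 doubled genes, for all 21724 tested genes of at least 1 CPM and for the 1310 other genes called higher in zmrpn1. The doubled genes reach 46.9% in zmrpn1 replicate 3 and 20.4% in zmrpn1 replicate 1, and lie between 29.6% and 35.4% in the WT libraries.

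Among well-expressed genes, where counting error is small, replicate 3 was also the most often highest. Of the 49 doubled genes of at least 20 CPM, 35 were highest in zmrpn1 replicate 3, 9 in replicate 2 and 5 in replicate 1. Replicate 3 thus had 71.4% of them, against 33.5% of all 11124 tested genes at this level and 56.3% of the 756 other genes there called higher in zmrpn1, and these differences were not tested. The highest zmrpn1 value was a median of 1.13 times the lowest, as it was in WT. In 5 genes it was at least 1.3 times the lowest, and all 5 were highest in replicate 3. Between the WT libraries 7 of the 49 genes reached 1.3. Of the 5 genes with uneven zmrpn1 values, Zm00001d014253 was the furthest, with 21.1, 20.8 and 28.6 CPM in zmrpn1 and 9.53, 8.15 and 8.17 CPM in WT. Zm00001d008573 was next, with 43.0, 40.0 and 53.3 CPM in zmrpn1 and 15.1, 15.4 and 16.0 CPM in WT. In both genes zmrpn1 replicates 1 and 2 alone were already more than 2 times every WT library.

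Outside the stretches left out by the rule, which held 12 and 1 qualifying genes, the doubled genes were spread over the count table. By their identifiers the nuclear rows fall into 10 runs of neighbouring numbers, and each run held doubled genes, from 2 of 151 genes of at least 1 CPM in the shortest (Zm00001d000001 to Zm00001d000460) to 37 of 3382 in the run from Zm00001d027230 to Zm00001d034962. As a share of a run's genes they ranged from 0.706% (11 of 1559, Zm00001d044719 to Zm00001d048576) to 1.32% in the shortest run. The genes of a run here include those in the left-out stretches. A run need not be a chromosome, since chromosomes with consecutive numbers would share a run. Some identifiers stand out of sequence among their neighbours, and these made up 2518 of 44146 nuclear rows but 142 of the 21633 of at least 1 CPM in zmrpn1. Among the doubled genes there were 2, Zm00001d022678 and Zm00001d001104.

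Some doubled genes lay close together. Of the 226, 31 genes in 14 groups had another doubled gene within 5 tested genes in row order, 15 had one within 2, and 42 within 10. Most groups were pairs, and the largest held 4 genes. Whether that is more than scattered genes would show was not tested.

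The tightest group was Zm00001d021205, Zm00001d021207 and Zm00001d021208, which fill 3 successive rows of the table. Zm00001d021205 had 1.42, 1.17 and 2.34 CPM in WT and 6.14, 6.67 and 5.88 CPM in zmrpn1. Zm00001d021207 had 0.880, 0.432 and 0.508 CPM in WT and 1.66, 2.21 and 2.31 CPM in zmrpn1. Zm00001d021208 had 2.64, 3.09 and 2.68 CPM in WT and 10.9, 9.65 and 10.2 CPM in zmrpn1. Their ratios of 3.79, 3.39 and 3.66 were close to each other although their levels differed. The sources used here do not say whether these genes overlap or are copies between which reads could be divided, and the same holds for the consecutive pairs described next to them.

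The group of 4 was looser, with Zm00001d004342, Zm00001d004348, Zm00001d004363 and Zm00001d004380 spread over 35 rows. Zm00001d004342 was the strongest, with 4.59, 5.18 and 4.24 CPM in WT and 17.5, 17.2 and 19.2 CPM in zmrpn1, a log2 change of 1.95 (standard error 0.11.) The other 3 averaged 2 to 4.14 CPM in zmrpn1, and all 4 ratios fell between 3.40 and 4.19. Of the 9 other tested genes between them edgeR called 1, Zm00001d004366, lower, with a log2 change of -1.02 (standard error 0.16, edgeR adjusted p = 5.77e-06 over all tested genes). None of the 9 was called higher, where 5.73% of tested genes other than doubled genes were, so few or none would be called at that share. Zm00001d004354, for example, averaged 4.45 CPM in both genotypes.

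Pairs with consecutive identifiers were Zm00001d011655 and Zm00001d011656, and Zm00001d038883 and Zm00001d038884. Zm00001d011655 had 2.84, 1.67 and 3.29 CPM in WT and 8.01, 6.87 and 7.27 CPM in zmrpn1. Zm00001d011656 had nearly the same values, 2.69, 2.22 and 3.22 CPM in WT and 6.84, 7.97 and 8.31 CPM in zmrpn1, and both had a ratio of 2.84. Zm00001d038883 and Zm00001d038884 shared a low zmrpn1 replicate 2, at 5.57 CPM beside 6.25 and 8.96 CPM, and at 2.21 CPM beside 3.85 and 3.73 CPM.

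Other close pairs did not match in size. Zm00001d037985 had a ratio of 5.19, with 0.733, 0.679 and 0.711 CPM in WT and 3.15, 4.03 and 3.85 CPM in zmrpn1. Its partner Zm00001d037988, the next tested gene, had a ratio of 2.82, with 1.32, 1.42 and 1.25 CPM in WT and 3.90, 3.31 and 4.04 CPM in zmrpn1. The pair thus stood at like levels in the mutant and differed in WT. Zm00001d023677, with its ratio of 8.59, had as the next tested gene Zm00001d023673, whose ratio was 2.89. In other pairs the levels were far apart, as in Zm00001d007175 at 61.8 ± 4.34 CPM and Zm00001d007181 at 3.06 ± 0.454 CPM in zmrpn1 (mean ± SD, n = 3).

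Genes beside the doubled genes were taken by position, with doubled genes themselves left out. The 2 tested genes on each side of each doubled gene made up 859 such genes. EdgeR called 75 of them higher (8.73%) and 46 lower (5.36%) in zmrpn1 at an adjusted p under 0.05. With the doubled genes left out of the background too, 5.73% of the other 23252 tested genes were called higher and 5.87% lower (6.63% and 5.82% of all tested genes). Their median log2 change was 0.0028, against -0.0004 over the 23252 genes. With 1 gene on each side 13.5% were called in either direction, and with 5 on each side 13.3%, where 11.6% of the 23252 genes and 12.4% of all tested genes were. The share called higher was thus above the background and the share called lower was near it, and neither difference was tested. The background is not wholly alike, as 224 of the 23252 genes lie in the stretches left out by the rule and none of the 859 neighbours do.

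**Figure D5:**
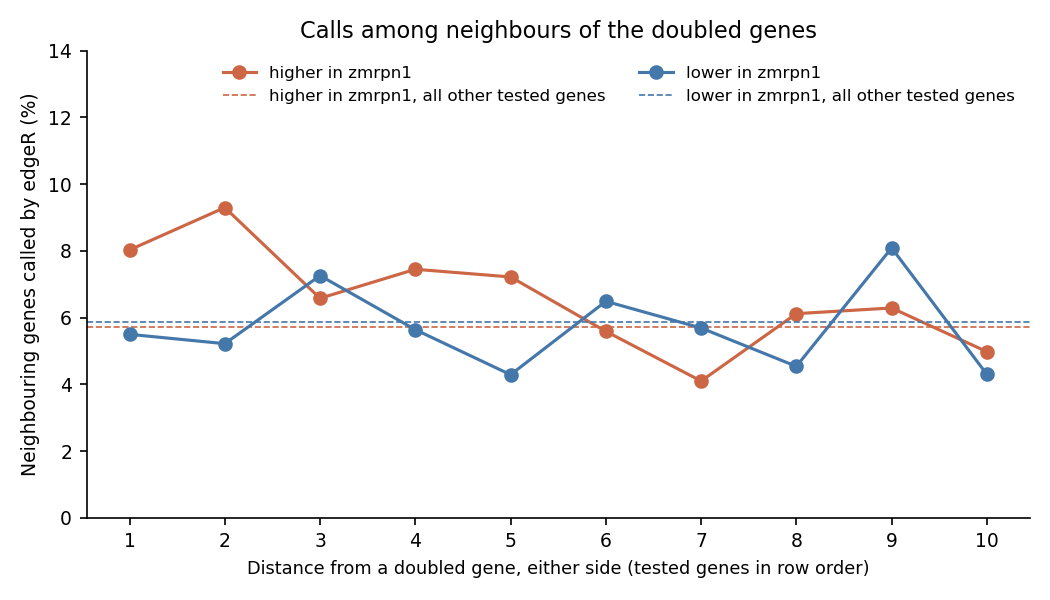
Percentage of neighbouring tested genes called higher (orange) or lower (blue) in zmrpn1 by edgeR, by distance from a doubled gene in row order, with dashed lines at 5.73% and 5.87% for all tested genes other than doubled genes. The share called higher is 8.03% and 9.30% at distances 1 and 2 and lies between 4.10% and 7.45% at distances 3 to 10. The share called lower lies between 4.29% and 8.09% over distances 1 to 10 and is highest at distance 9.

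Of the 436 genes directly beside a doubled gene, 35 were called higher, and their ratios ran from 1.20 to 2.93. Zm00001d018159, next to the doubled gene Zm00001d018158, averaged 0.339 CPM in WT and 0.925 CPM in the mutant, a ratio of 2.73 at a level under the 1 CPM minimum. Zm00001d002454 likewise had a ratio of 2.93 at 0.867 CPM. Zm00001d033050 and Zm00001d003607 had ratios of 1.98 at 9.07 and 13.7 CPM in zmrpn1. These neighbours are named after their values were seen.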

How the data were processed

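The authors deposited raw whole-number read counts per gene for 46430 rows and 6 libraries, with no normalization. Per the labels' protocols, libraries of DNase-treated total RNA were prepared with the NEBNext Ultra II kit. The tools listed in the submitters' processing notes are HISAT2 2.2.1, StringTie 1.3.6, featureCounts 1.6.4, Trimmomatic 0.39 and DESeq2, with the build B73 RefGen_v4. The sources used here do not state settings, use of strand or treatment of reads with several matches, so overlapping or near-identical genes may share counts.

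CPM used plain library totals. EdgeR 4.0.16 in R 4.3.3 tested 23477 genes (filterByExpr, minimum count 10, TMM, robust quasi-likelihood F test, Benjamini-Hochberg threshold 0.05), and standard errors were the log2 change over the square root of F. On simulated counts for 23302 genes this zmrpn1 against WT fit found 97 of the 100 genes altered 2-fold and, of 100 altered 1.25-fold, 49, and it made 7 false calls. The simulation gave every gene the same spread beyond counting error and altered only genes averaging at least 1 CPM. Recovery of weaker or more variable genes was not tested. Intervals are exact binomial at 95%. Chi-square values between libraries of a group were 2.01 to 4.88 per tested gene, so libraries differed by more than counting error. Each library counted as 1 replicate, though these values cannot show whether the libraries came from separate plants. Names were sought in a RefSeq gene table for Zm-B73-REFERENCE-NAM-5.0.

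The genes, the rule and the lists were chosen with earlier results of these data known. Named genes were the 10 with the highest zmrpn1 level, the 10 with the largest ratio, 3 on each side of the threshold and groups of 3 or more close together. Others are marked as chosen after their values were seen. Alternatives were other scalings (library size, upper quartile, DESeq2 1.42.0 size factors), tests (DESeq2, limma-voom in limma 3.58.1), filters, thresholds, the replicate number as a block and each library left out.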

Additional observations from a re-analysis of the deposited data

How the results depend on the processing

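The number of doubled genes was 657 at a fold of 1.5 and 63 at a fold of 3, by construction. It was 220 with TMM-scaled CPM and 218 with DESeq2 size factors, all among the 226, and 223 to 275 with 1 library left out. With group medians in place of means it was 238, of which 207 were among the 226. Doubled genes called higher numbered 203 to 225 over the 14 alternative fits, 215 with DESeq2 and 209 to 219 with 1 library left out. The 203 came with a filter at 1 CPM in 3 libraries. The number tested is not given for each fit, so genes not tested and genes not called are not told apart. The median log2 change of the doubled genes ran from 1.3 to 1.37. Called neighbours numbered 89 with DESeq2, 130 with library size only and 93 to 108 with 1 library left out, against 121 (75 higher and 46 lower). These counts pool both directions, and the share of all tested genes called in either direction is not given for these fits. They therefore do not show whether the share of neighbours called higher stays above the background. Of all tested genes 6.63% were called higher in the main fit. The share was 5.03% with DESeq2, 7.32% with library size only and 4.96% to 5.95% with 1 library left out. Over the 14 alternative fits it ran from 4.96% to 7.62%. Doubled genes with another close by numbered 15 within 2 tested genes and 42 within 10, against 31 within 5. All 33 genes named by the rule kept a positive log2 change in their 9 alternative fits, and the largest shift was 0.52 log2 units. That sign was all but fixed in advance, since all 33 were chosen with every zmrpn1 value above every WT value. Deviations from the group means in WT and zmrpn1 libraries of the same number had correlations of -0.0820 (replicate 1), 0.0438 (replicate 2) and 0.0221 (replicate 3). For libraries of unlike number the correlations were -0.0907 to 0.0679. These values cannot show whether libraries of the same number were handled together. With the replicate block 224 doubled genes were called higher, where 6.90% of all tested genes were, and 129 neighbours were called in either direction. At this depth a gene of 1 CPM rests on few counts (16.2 in the smallest library), which limits the ratios of the weakest genes.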
